A study of Mus musculus with 12 samples.

Results

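Splicing factors and RNA-binding proteins of 7 naming families (Hnrnp, Srsf, Sf3a and Sf3b, Prpf, Snrp, Lsm followed by a digit, and Rbm) were followed across 4 conditions of mouse cerebellum. Every gene whose name began with one of these stems was taken, which gave 73 of the 7667 named genes: 14 Hnrnp, 9 Srsf, 8 Sf3a or Sf3b, 11 Prpf, 9 Lsm and 22 Rbm genes. The RefSeq table names 125 protein-coding mouse genes with these stems, so the 73 are those that had a row. No row began with Snrp, and the 12 genes of that stem were not analysed here.

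The mice were fxSCA7 92Q animals, which carry 92 CAG repeats in the spinocerebellar ataxia type 7 gene, and their wild-type littermates. Both genotypes were sampled at 12 and at 29 weeks of age. The 4 groups had 3 libraries each, 12 in all, and every library pooled cerebella of 3 mice. No source used here gives the promoter that drives the 92Q allele. Deposited values amount to 1 per gene and condition, a whole-number normalized score without a stated unit, so there is no spread over libraries, no test and no p-value, and the read depth is unknown.

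Differences are given as log2 ratios of scores plus a pseudocount of 1, with the range that rounding to whole numbers alone allows. That range spans 0.13 to either side for a gene at 10 and 0.03 for a gene at 50. A gene is called when its ratio reaches 1.2-fold. A score difference of 2 or more units is used as a finer count, because rounding alone cannot produce it. Whether the score is divided by transcript length is not stated, so levels of different genes are not ranked against each other.

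Introns are removed from pre-mRNA by the spliceosome, which assembles anew on each intron from small nuclear ribonucleoproteins (snRNPs) and many further proteins. SR proteins (the Srsf genes) mostly bind exonic enhancers and promote the use of nearby splice sites. The hnRNP proteins coat nascent transcripts and often repress splice sites. The SF3A and SF3B proteins belong to the U2 snRNP that recognises the branch site, the Prpf proteins act largely in the U4/U6.U5 particle and the catalytic core, and the Lsm proteins form rings around U6 RNA or act in mRNA decay.

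Many of these genes control their own output through exons that bring in an early stop codon and send the transcript to nonsense-mediated decay. In the GENCODE M21 annotation all 9 Srsf genes have a transcript of the nonsense-mediated decay class, against 33 of the 73 members (45.2%) and 29.6% of the 7257 protein-coding genes with a row. The share was 50.0% for Hnrnp and 12.5% for the SF3 genes. The score is 1 value per gene, so productive and decay transcripts cannot be told apart in it. For 4 SR genes described below, the coding bases that run up to the early stop are shown. They mark annotated transcripts that the score could not separate from the productive ones. Whether reads from these exons enter the score is not known, since the authors' annotation is not given. They lie in exons that no protein-coding transcript of the same gene overlaps, and capitals mark the stop codon (GENCODE M21 transcripts, mm10).
Srsf3: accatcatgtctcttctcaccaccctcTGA
Srsf7: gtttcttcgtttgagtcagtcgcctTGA
Srsf4: gtaacccggttgtctcatgccccagctTAG
Srsf9: cctgggttggagattacggattcacagTAG
The Srsf3 exon is 456 bases long and lies on the plus strand at chr17:29039454-29039909. The Srsf7 exon, of 460 bases, is on the minus strand at chr17:80204622-80205081. Those of Srsf4 (207 bases, chr4:131884276-131884482) and Srsf9 (358 bases, chr5:115328347-115328704) are on the plus strand. The stops were TGA in Srsf3 and Srsf7 and TAG in Srsf4 and Srsf9.

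No member of these families differed by genotype as far as 1.2-fold at either age. At 12 weeks 0 of the 73 members were 1.2-fold higher in 92Q and 0 were 1.2-fold lower, where 0.496% and 1.54% of 7660 genes compared were called. At 29 weeks the counts were again 0 and 0 of 73, beside 3.78% and 3.12% of 7666 genes. The members' median log2 ratio was 0.00 at both ages, as was that of all genes compared. At 12 weeks the 92Q score was the higher in 31 members and the lower in 25, and at 29 weeks in 36 and 18. Over all genes 32.1% were higher and 36.7% lower at 12 weeks, and 49.5% and 26.1% at 29 weeks, and the family counts given further on stand beside those shares. The members' log2 ratios ran from -0.22 to 0.14 at 12 weeks and from -0.17 to 0.16 at 29 weeks. Of the members 93.2% and 91.8% lay within 1.1-fold, against 88.8% and 77.6% of all genes. Lsm10 at 12 weeks and Prpf3, Prpf39 and Rbm48 at 29 weeks were exactly 1.1-fold lower. They are within by these shares but lower by the 1.1-fold counts given further on. All 73 reached the minimum of 5 used for a ratio. A gene has a row only when it reaches 10 in some condition. Lsm6, Lsm10, Prpf3, Rbm28 and Rbm48 reached 10 in 1 condition each, so part of their pattern is fixed by that, and the other 68 were at 10 or more in all 4.

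**Figure D1:**
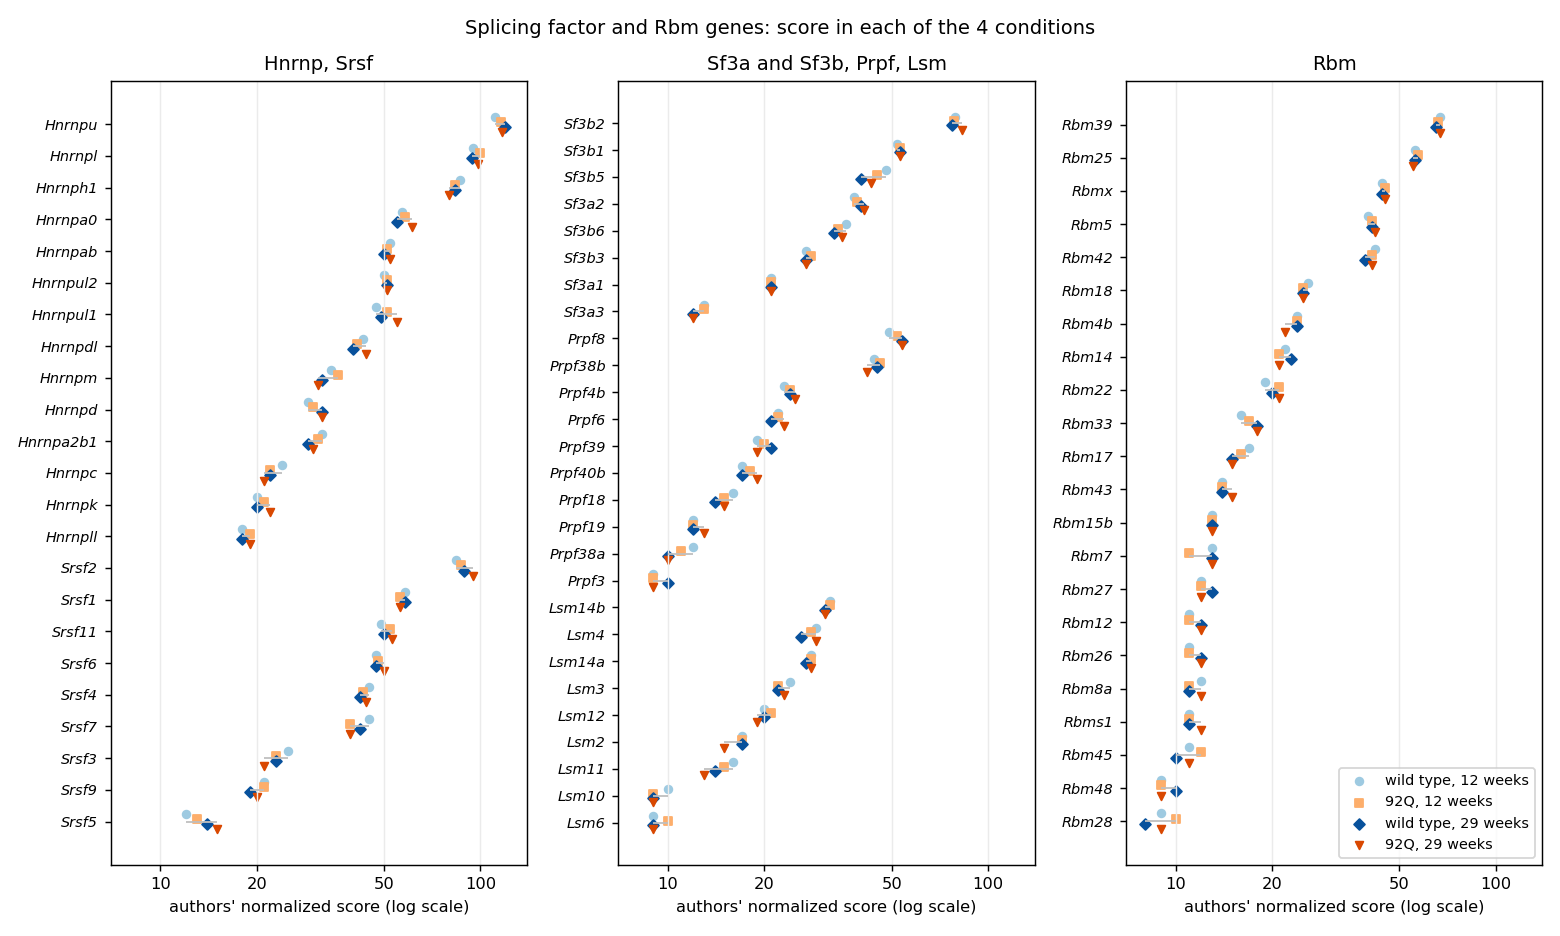
Authors' normalized score (log axis) of 72 of the 73 members in wild type and 92Q at 12 and 29 weeks, by family; each row is a gene, each symbol a condition, and the grey line joins its lowest and highest condition. For most genes the 4 symbols nearly coincide, and the ratio of highest to lowest score reached 1.2 for 6 members.

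Over the 4 conditions the highest score divided by the lowest had a median of 1.095 for the members and 1.11 for all genes, and it reached 1.2 for 6 of 73 members (8.22%) and for 20.5% of all genes. Those 6 were Srsf5, Rbm28, Lsm11, Sf3b5, Prpf38a and Rbm45. Low scores inflate this ratio, so it was also taken within bands of mean score. Between 15 and 25 it reached 1.2 in 0 of 20 members and in 16.4% of all genes. Between 25 and 50 it did so in 1 of 19 members (5.26%) and 14.9% of genes, and between 50 and 150 in 0 of 15 members and 17% of genes. Between 8 and 15 the 2 were closer, at 5 of 19 members (26.3%) and 29.8% of genes. Genes with a mean below 8, or of 150 and more, are in none of these bands. These shares are a description, and the difference between members and other genes was not tested.

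In the same libraries other genes differed more. All 12 Purkinje cell markers were lower in 92Q at both ages (median log2 ratio -0.27 and -0.62), and their summed score was 6317 and 4877 at 12 weeks and 5264 and 3217 at 29 weeks, wild type first. The summed microglia score was 162, 163, 189 and 409 in wild type and 92Q at 12 weeks and then at 29 weeks. In the same order the choroid plexus markers with a row, 6 of 9 listed, summed to 364, 20, 478 and 1473. Of these sums Ttr alone made up 336, 6, 445 and 1403. Kcnj13, Clic6, Kl and Sostdc1 reached 10 only in 92Q at 29 weeks, so they have rows through that condition alone. Otx2 was 10, 10, 12 and 14. Kl and Sostdc1 of the choroid plexus list were listed at 0 in 92Q at 12 weeks, and no Purkinje or microglia marker was at 0. All 11 microglia markers with a row, of 14 listed, were higher in 92Q at 29 weeks (median log2 ratio 1.096). Cx3cr1, Trem2, Cd68 and Lyz2 reached 10 only in that condition, so their direction was fixed by the need for a row. Xist was 66 and 30 at 12 weeks and 63 and 25 at 29 weeks, while the Y-linked Eif2s3y was 0 and 12, then 6 and 15, so Xist was lower and Eif2s3y higher in 92Q at both ages. The part of cell makeup and of sex in the members' values was not tested, and in whole tissue fewer cells of a type cannot be told apart from less RNA per cell. The 1 X-linked member, Rbmx, which encodes hnRNP G, was 44 in wild type and 45 in 92Q at each age.

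SR genes differed in both directions. Srsf7, whose protein pairs an RNA recognition motif with a zinc knuckle, was 45 in wild type and 39 in 92Q at 12 weeks and 42 and 39 at 29 weeks. The gene lies on the minus strand at chr17:80200080-80207307 (mm10). Both 92Q scores lay below both wild-type scores. The log2 ratio was -0.20 at 12 weeks (rounding range -0.24 to -0.17) and -0.10 at 29 weeks (-0.14 to -0.07). Srsf3, the smallest SR protein and an adaptor for mRNA export, was 25 and 23 at 12 weeks and 23 and 21 at 29 weeks, with ratios of -0.12 and -0.13. Srsf1, the founding SR protein, was 58 in wild type and 56 in 92Q at both ages.

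Srsf2, also known as SC35, went the other way. It was 84 in wild type and 87 in 92Q at 12 weeks and 89 and 95 at 29 weeks, so both 29-week scores exceeded both 12-week scores and 92Q was the higher at each age. The ratio was 0.05 at 12 weeks (0.03 to 0.07) and 0.09 at 29 weeks (0.08 to 0.11). Srsf11 was 49 and 52, then 50 and 53, a ratio of 0.08 at each age. Srsf6 was 47 and 48, then 47 and 50.

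Srsf5 had the largest ratio of highest to lowest score among the SR genes (1.25), with 12, 13, 14 and 15 in wild type and 92Q at 12 weeks and then at 29 weeks. It was higher at 29 weeks in both genotypes, by a log2 ratio of 0.21 in wild type (0.10 to 0.31) and 0.19 in 92Q (0.10 to 0.29). Of the remaining SR genes, Srsf4 was 45 and 43, then 42 and 44, and Srsf9 was 21 and 21, then 19 and 20. Across the family the 92Q score was the higher in 4 of 9 and the lower in 4 at 12 weeks, and the higher in 6 and the lower in 3 at 29 weeks, when 49.5% and 26.1% of all genes were (median log2 ratio 0.00 and 0.07).

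Some of these scores may mix genes. Of the 50-base words in the longest coding transcript of Srsf4, the length of the study's reads, 65.4% also occur in transcripts of other genes, chiefly the opposite-strand Gm12992. The share was 35.2% for Srsf2, which overlaps Mettl23 and Mfsd11, 31.5% for Srsf3 and 27.8% for Srsf5, but 0.893% for Srsf7 and 0% for Srsf6, Srsf9 and Srsf11. The sources used here do not say how reads with several matches or either strand were counted, so the first 4 values are uncertain. Among all 73 members 17 shared 10% or more of these words and 27 shared none.

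Among the hnRNP genes Hnrnpul1 had the largest genotype ratio at 29 weeks. It encodes a protein related to the scaffold attachment factor hnRNP U, and it was 47 in wild type and 51 in 92Q at 12 weeks and 49 and 55 at 29 weeks. The gene lies at chr7:25721165-25754757 (mm10, minus strand). Both 92Q scores were above both wild-type scores. The log2 ratio was 0.12 at 12 weeks (0.09 to 0.14) and 0.16 at 29 weeks (0.14 to 0.19), the latter the highest of the 73 members, and 0.268% of its 50-base words occur elsewhere. Hnrnpl, which binds CA repeats, was 95 and 100, then 94 and 98, and so was also higher in 92Q at both ages. Hnrnph1, which binds runs of G, was 86 and 83, then 83 and 80, lower at both.

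Hnrnpa0, a binder of AU-rich elements, stood near wild type at 12 weeks and above it at 29 weeks, with 57 and 58, then 55 and 61 (log2 ratio 0.02 and 0.15). Hnrnpdl was 43 and 41, then 40 and 44, so its direction at 29 weeks was the opposite of that at 12. Hnrnpk, which binds C-rich RNA, was 20 and 21, then 20 and 22. For Hnrnpk 37.8% of the 50-base words are shared, mostly with Gm7964.

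Hnrnpm was 34 and 36, then 32 and 31, and overlaps March2 on the same strand (28.8% of words shared). Hnrnpc, a binder of U tracts, was 24 and 22, then 22 and 21. Hnrnpu itself was 111 and 116, then 119 and 117, with the lowest score in 12-week wild type. The other hnRNP genes, Hnrnpab, Hnrnpul2, Hnrnpd, Hnrnpa2b1 and Hnrnpll, had log2 genotype ratios between -0.04 and 0.07. Of these Hnrnpab shares 29.0% of its words, mostly with the opposite-strand Phykpl. Over the family 9 of 14 were higher and 5 lower at 12 weeks (median 0.04), and 8 were higher and 4 lower at 29 weeks (median 0.05).

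**Figure D2:**
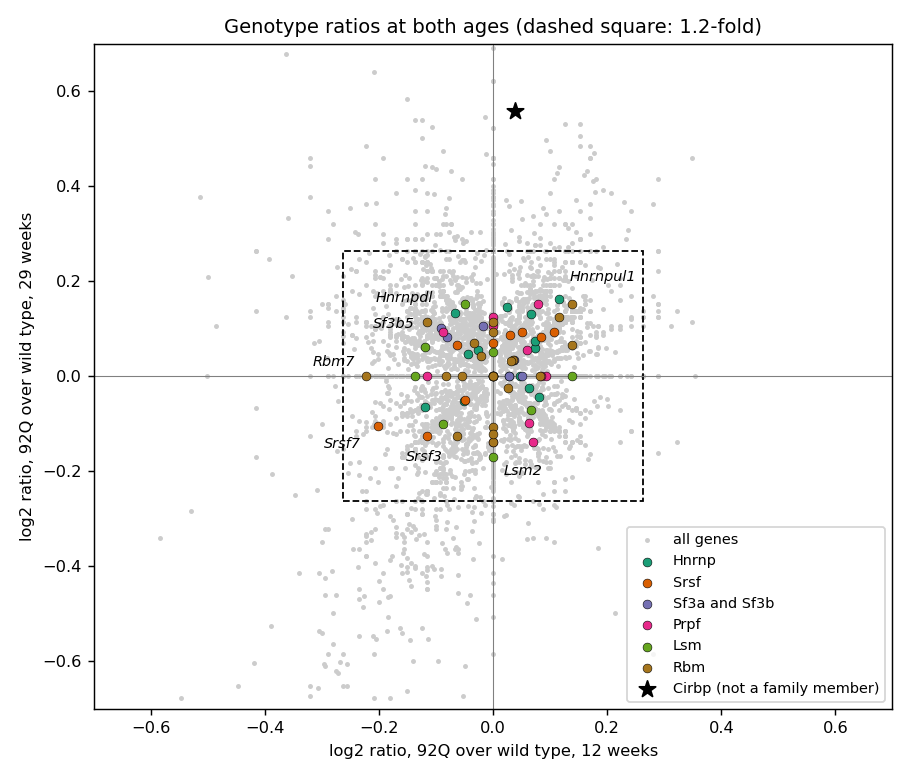
Log2 ratio of 92Q over wild type at 12 weeks (x axis) against 29 weeks (y axis) for members, coloured by family, over all genes in grey; axes end at 0.7 and the 69 genes beyond are not drawn. The 73 members lie inside the dashed square of 1.2-fold, and Cirbp, which is in none of the families, stands above it at 29 weeks (0.56).

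Several branch-site proteins of the U2 snRNP had nearly the same score in all conditions. Sf3b1, which holds the branch-site region and is a frequent target of mutation in blood cancers, was 52 in 12-week wild type and 53 in each of the other 3 conditions. Sf3a1 was 21 in all 4, Sf3b3 was 27 or 28, and Sf3a2 was 38 and 39, then 40 and 41. Sf3a3 was 13 at 12 weeks and 12 at 29 weeks in both genotypes.

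Sf3b5, Sf3b6 and Sf3b2 varied more. Sf3b5, a small subunit, was 48 in wild type and 45 in 92Q at 12 weeks and 40 and 43 at 29 weeks. The gene lies at chr10:13005343-13009183 (mm10). In wild type its log2 ratio with age was -0.26 (-0.29 to -0.22), the lowest of the 73 members. Sf3b6, which contacts the branch site, was 36 and 34, then 33 and 35. Sf3b2 was 79 and 78, then 77 and 83. At 12 weeks Sf3b5 and Sf3b6 were lower in 92Q, and at 29 weeks all 3 were higher, by log2 ratios of 0.10, 0.08 and 0.11, while Sf3b1 and Sf3b3 were equal.

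Among the Prpf genes Prpf8, which holds the catalytic RNA centre, was 49 and 52 at 12 weeks and 54 in both genotypes at 29 weeks. The 12-week wild-type score was the low one. Prpf6, which bridges the particles of the tri-snRNP, was 22 and 22, then 21 and 23. Prpf19, a ubiquitin ligase of the spliceosome, was 12 in 3 conditions and 13 in 92Q at 29 weeks.

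The U1-associated Prpf39 was 19 and 20, then 21 and 19, and Prpf40b was 17 and 18, then 17 and 19. Prpf38b was 44 and 46, then 45 and 42, and Prpf38a was 12 and 11, then 10 and 10. The kinase Prpf4b was 23, 24, 24 and 25, the second-step factor Prpf18 was 16 and 15, then 14 and 15, and Prpf3, of the U4/U6 particle, was 9 or 10. In this family the 12-week 92Q score was the higher in 6 of 11 and the lower in 2, and at 29 weeks the higher in 5 and the lower in 3.

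Lsm proteins of the U6 ring showed no common direction. Lsm2 was 17 in 3 conditions and 15 in 92Q at 29 weeks, a log2 ratio against wild type of -0.17 (-0.26 to -0.08), which was the lowest of the 73 at that age. Lsm4 was 29 and 28, then 26 and 29, with a 29-week ratio of 0.15. Lsm3 was 24 and 22, then 22 and 23, and Lsm6 was 9 or 10.

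Lsm11, of the U7 snRNP that trims histone mRNA, was 16 and 15, then 14 and 13, so it was lower with age in both genotypes (log2 ratio -0.18 and -0.19). Its partner Lsm10 was 10 in 12-week wild type and 9 elsewhere. Lsm14a and Lsm14b, proteins of cytoplasmic P-bodies, were 27 or 28 and 31 or 32, and Lsm12 was 20 and 21, then 20 and 19. With age in wild type 0 of the 9 Lsm genes were higher and 6 were lower, beside 32.5% and 45.9% of all genes compared. The median was -0.051, and -0.017 after scaling by the upper quartile.

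The Rbm genes are joined by an RNA-binding motif in the name and not by 1 pathway. Rbm7, a subunit of the complex that feeds nuclear RNA to the exosome, was 13 in 3 conditions and 11 in 92Q at 12 weeks. Its log2 ratio there was -0.22 (-0.33 to -0.11), the lowest of the 73 at 12 weeks, and it was 0.00 at 29 weeks. Rbm22, which sits at the catalytic core, was 19 and 21, then 20 and 21. Rbm14, a paraspeckle protein, was 22 and 21, then 23 and 21.

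Rbm45 was 11 and 12, then 10 and 11, and Rbm28 was 9 and 10, then 8 and 9. Rbm8a, the Y14 subunit of the exon junction complex, was 12 and 11, then 11 and 12, so its change of genotype log2 ratio between ages, 0.23, was the largest of the 73 although every score lay within 1 unit. The splicing regulators Rbm39, Rbm25 and Rbm5 ran from 65 to 67, from 55 to 57 and from 40 to 42. Rbm17, which helps choose the 3′ splice site, was 17 and 16, then 15 in both genotypes.

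Rbm15b, a member of the complex that methylates adenosines in mRNA, was 13 in all 4 conditions. Rbm26 and Rbm12 were each 11 at 12 weeks and 12 at 29 weeks in both genotypes, and Rbm27 was 12 in 3 conditions and 13 in 29-week wild type. For Rbm12 32.7% of the words are shared, mostly with the overlapping same-strand Gm28036. Rbm42 ran from 39 to 42, but 92.3% of its words are shared with the overlapping transcript Gm21982, and Rbm4b was 24 in 3 conditions and 22 in 92Q at 29 weeks with 50.5% shared. Rbm33 was 16 and 17, then 18 and 18. The remaining Rbm18, Rbm43, Rbm48 and Rbms1 each stayed within 1 score unit. Over the 22 genes, at 12 weeks 92Q had the higher score in 7 and the lower in 7, and at 29 weeks in 10 and 5.

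**Figure D3:**
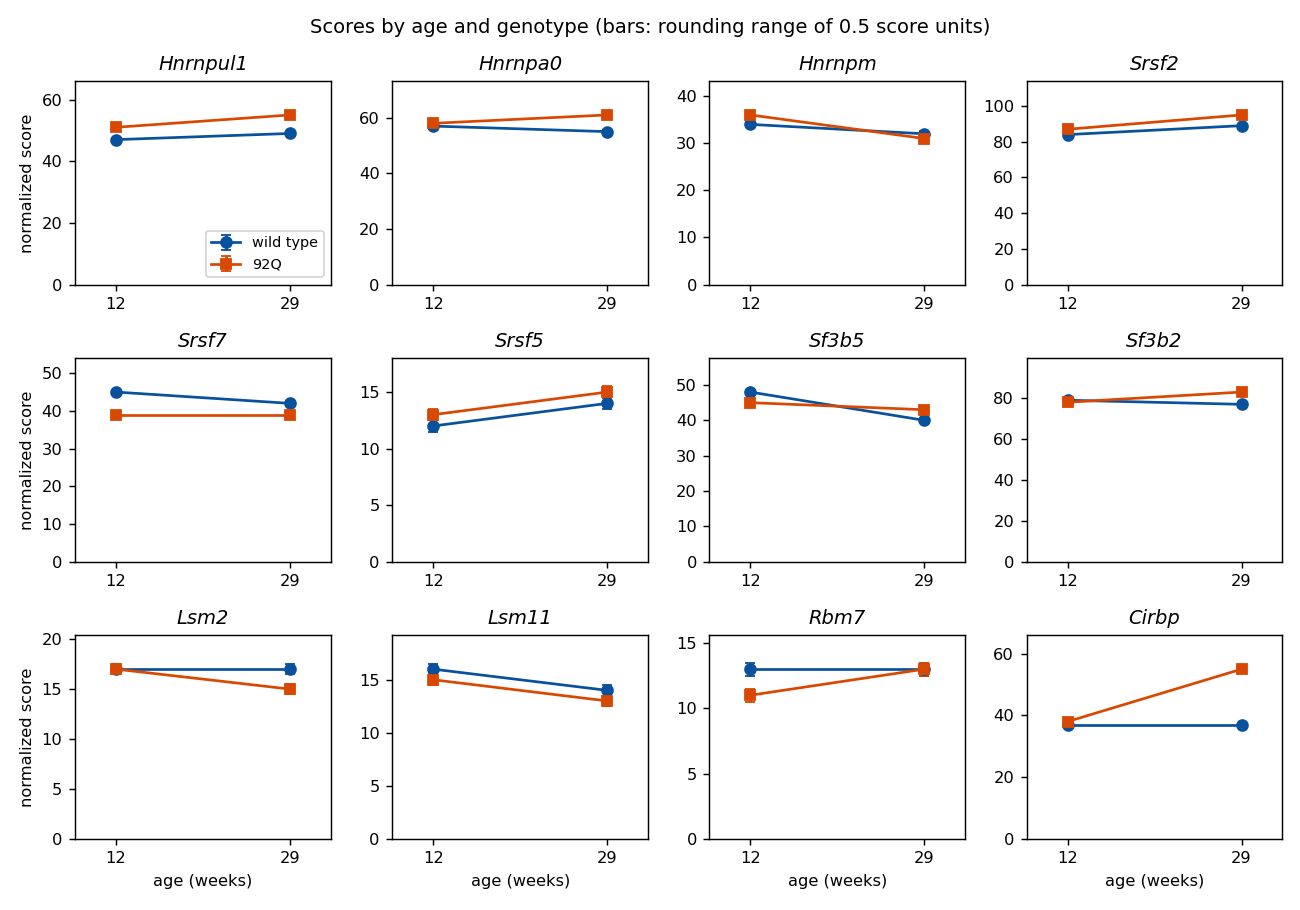
Score against age in weeks for 11 members and Cirbp, wild type in blue circles and 92Q in orange squares, with bars for the rounding range of 0.5 units (often smaller than the symbol) and each vertical axis starting at 0. Hnrnpul1 and Srsf2 were higher in 92Q at both ages and Srsf7 lower, while Cirbp parts only at 29 weeks.

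By the count of score units, 9 members were higher and 11 lower in 92Q by 2 or more at 12 weeks, where 11.3% and 18.7% of all genes were. At 29 weeks 18 were higher and 10 lower, beside 27.1% and 14.5%. As shares of 73 these are close to the background, and the rule counts more genes at higher scores. The 2 ages use separate libraries, and 4 members passed in the same upward direction at both, Hnrnpl, Hnrnpul1, Srsf2 and Srsf11, while Srsf1, Srsf3, Srsf7 and Hnrnph1 passed downward at both. Among all genes 4.62% and 6.05% did so, so 4 of 73 in each direction is near the background. Hnrnpu and Prpf38b were higher at 12 and lower at 29 weeks by that much (2.22% of all genes), and Sf3b5, Sf3b6, Srsf4 and Hnrnpdl the reverse (7.13%).

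With age, 0 of 73 members were 1.2-fold higher and 0 were 1.2-fold lower in wild type, beside 2.45% and 3.81% of 7663 genes, and 0 and 0 in 92Q, beside 5.53% and 4% of 7667. These counts use the pseudocount of 1. Without it Sf3b5 (48 and 40) and Prpf38a (12 and 10) stood at exactly 1.2-fold lower in 29-week wild type. In wild type 10 members were higher and 22 lower at 29 weeks by 2 or more units, beside 16.2% and 29% of all genes. In 92Q 11 were higher and 11 lower, beside 23.6% and 20.9%. The age comparisons of wild type and 92Q use separate libraries. Hnrnpd, Hnrnpul1, Prpf8, Sf3a2, Srsf2 and Srsf5 were higher by 2 or more in both (9.38% of all genes), and Hnrnph1, Hnrnpm, Lsm11, Sf3b5 and Srsf3 were lower in both (13.4%). Sf3b2, Hnrnpa0 and Hnrnpdl were lower with age in wild type and higher in 92Q (4.23%), and 0 members the reverse (1.42%). Scaling by the upper quartile, which divides the 12-week wild-type scores by 1.02 and the other 3 by 0.99, gave wild-type age counts of 14 higher and 5 lower at 2 units, and of 17 and 13 at 1.5 units (a cut that gives the same counts as 2 on whole-number scores), where the deposited scores gave 10 and 22. For genotype at 12 weeks it gave 15 and 1 at 2 units and 20 and 3 at 1.5 units, where the deposited scores gave 9 and 11. The direction of both imbalances was thus not kept under that scaling. The upper quartile is itself taken from whole-number scores, so rounding limits this factor as well. Median-of-ratios scaling divides the 12-week scores by 1.0008 in wild type and 1.0005 in 92Q. At the 1.5-unit cut its counts stayed within 1.5-fold of those from the deposited scores. The genotype and age comparisons share condition values and are not separate evidence.

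The change of genotype ratio between ages was also within 1.2-fold for all 73 members, from -0.21 for Prpf39 to 0.23 for Rbm8a, with a median of 0.00. How many of all genes reached 1.2-fold in this change was not computed. Over all 7667 genes 15.3% reached 1.2-fold in 1 or more of the 4 comparisons, and 0 of the 73 members did, again with the pseudocount.

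Other genes of splicing and RNA processing were listed by role, 6 lists with 156 genes, of which 121 had a row. At 12 weeks 0 of the 121 were 1.2-fold higher in 92Q and 2 were 1.2-fold lower, Bud31 and Ppil1, beside 0.496% and 1.54% of all genes. At 29 weeks 1 was higher, Cirbp, and 1 lower, Srrm4, beside 3.78% and 3.12%. The direction counts of the lists below stand beside 32.1% higher and 36.7% lower over all genes at 12 weeks, and 49.5% and 26.1% at 29 weeks. The 12-week ratios of the spliceosome genes Bud31 (59 and 49, then 48 and 51) and Ppil1 (11 and 9, then 10 and 10) lay at the threshold itself.

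Cirbp encodes a cold-inducible RNA-binding protein with 1 RNA recognition motif and was the only one of the 121 in the authors' deposited table of 99 genes, which held 0 of the 73 members. In that authors' deposited table it was 37 in wild type and 38 in 92Q at 12 weeks and 37 and 55 at 29 weeks. The other 3 conditions were level and 92Q at 29 weeks stood apart, a log2 ratio against 29-week wild type of 0.56. The authors chose those 99 genes on these samples, so the table is not independent evidence. The hour of sampling is not given in the sources used here. Clock genes were lower in 92Q at 29 weeks in 12 of 14 (median -0.12), while at 12 weeks 4 were higher and 5 lower (median 0.00). With age in wild type 12 were higher and 2 lower (median 0.32), beside 32.5% and 45.9% of all genes, and Cirbp was 37 at both ages. With age in 92Q 11 were higher and 3 lower (median 0.22), beside 42.4% and 35.4%. The part of sampling time in the Cirbp value was not tested.

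Among neuronal splicing regulators Rbfox3, the gene of the neuronal marker NeuN, was 182 and 178, then 174 and 151 (29-week ratio -0.20), while Nova1 was 25 and 26, then 25 and 27. Khdrbs3 was 9 or 10, and Khdrbs1 was 39 in 3 conditions and 42 in 92Q at 29 weeks. The list had 14 of 22 higher and 3 lower at 12 weeks (median 0.04), and 6 higher and 9 lower at 29 weeks (median 0.00). Granule neuron markers had the same order of medians, 0.07 at 12 and -0.10 at 29 weeks. Their part in the list's values was not tested.

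In the SR kinase and SR-related list Srrm4, which drives neuronal microexons, was 22 and 23, then 25 and 20 (29-week ratio -0.31). The SR-like regulator Tra2a was 34 and 34, then 35 and 31, Pnisr was 57 and 63, then 61 and 61, and Sfswap was 28 and 31, then 30 and 30. This list had 14 of 21 higher and 1 lower at 12 weeks (median 0.04), the lower gene being the SR kinase Clk1 at 97 and 89 (then 98 and 90), and 9 higher and 7 lower at 29 weeks (median 0.00).

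Of the other nuclear RNA-binding proteins 12 of 18 were higher and 4 lower at 12 weeks (median 0.05), and 9 were higher and 2 lower at 29 weeks (median 0.01). Ewsr1, which encodes a nuclear RNA-binding protein, was higher in 92Q at both ages, at 32 and 36, then 36 and 39. The paraspeckle gene Pspc1 was 16 and 16, then 15 and 17.

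Of the other core spliceosome genes 10 of 38 were higher and 17 lower at 12 weeks (median 0.00), and 19 were higher and 8 lower at 29 weeks (median 0.01), the latter as shares 50.0% and 21.1%, near those of all genes. Besides Bud31 and Ppil1, the widest 12-week ratios were those of Srrm1 (50 and 56, then 57 and 60) and Syf2 (37 and 33, then 31 and 33). Srrm2, which encodes a large nuclear speckle protein, was 128 and 139, then 152 and 151. Like Sf3b5, Bud31 and Syf2 had their highest score in 12-week wild type and their lowest in 29-week wild type. The exon junction, decay and export list had a median of 0.00 at both ages over 19 genes, where Upf3a was 15 and 14, then 13 and 15, and Smg1, a decay kinase, was 27 and 28, then 30 and 27. The export gene Thoc1 was 11 in 12-week wild type and 10 elsewhere, and the cap-binding Ncbp2 was 13 in 29-week wild type and 14 elsewhere. The SMN complex, which loads Sm rings on snRNAs, had 3 genes with a row, and Smn1 was 15 in 12-week wild type and 13 elsewhere, while Strap was 44 and 40, then 40 and 39, and Gemin7 was 45 and 46, then 42 and 45.

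**Figure D4:**
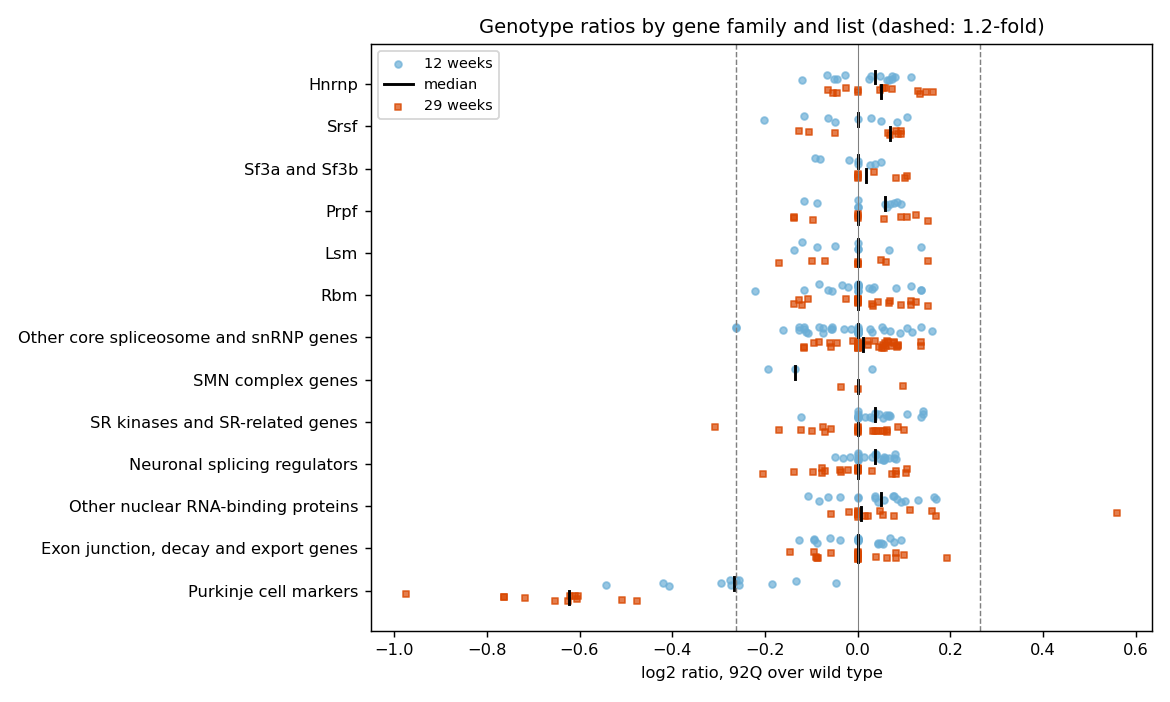
Log2 ratio of 92Q over wild type for each gene of the member families, the 6 pathway lists and the Purkinje markers at 12 weeks (blue circles) and 29 weeks (orange squares); black bars are medians and dashed lines 1.2-fold. Family medians run from 0.00 to 0.07, whereas the Purkinje medians are -0.27 and -0.62.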

How the data were processed

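The sources analysed were 2 deposited tables from 12 libraries of cerebellar RNA. The submitters' processing notes name Cuffdiff 1.3.0, Bowtie 0.12.7, SAMtools 0.1.12a and mm10, with neither role nor order. The deposited values are a normalized score rounded by the authors to whole numbers, 1 per gene and condition. The sources used here do not give filters, annotation or normalization. Depth per library is unknown, so no counting interval was computed.

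Of 7684 rows 17 with a number in place of a gene name were left out. Log2 ratios used a pseudocount of 1 and genes that reached a score of 5 in at least 1 of the conditions compared. The design allowed limma only for values per library, so no test was made. The rule for named genes took members past 1.2-fold, the 5 highest and 5 lowest ratios per comparison, the 10 with the widest spread, the extremes of each family and up to 4 genes per pathway list; other members were given to complete their families, and other list genes were chosen after their values were seen. Values of 1 member and 1 list gene are not reported here. Members, lists and thresholds were chosen with earlier results of these data known, and the count by 2 score units was added after the values were seen. Coordinates and transcript classes came from GENCODE M21, on the assembly of mm10. The ratio steps were run on altered copies of the scores, in which chosen genes were raised or lowered 1.5-fold and all others left equal. No noise was added and no change near 1.2-fold was tried, so this checks the code alone. Python 3.11.15 and pandas 2.3.3 were used.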

Additional observations from a re-analysis of the deposited data

Results flagged for a closer look

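Several members differed in opposite directions at the 2 ages or in the 2 genotypes, by 2 or more score units each time. The differences between ages or genotypes were not tested, since each condition has 1 value. For genotype, the log2 ratios at 12 and 29 weeks were 0.063 and -0.024 for Hnrnpu, -0.091 and 0.10 for Sf3b5, 0.063 and -0.10 for Prpf38b, -0.064 and 0.066 for Srsf4, -0.067 and 0.13 for Hnrnpdl, and -0.080 and 0.083 for Sf3b6. Of 73 members 2 were higher and then lower and 4 lower and then higher, beside 2.22% and 7.13% of all genes. For age, the log2 ratios in wild type and in 92Q were -0.037 and 0.089 for Sf3b2, -0.051 and 0.072 for Hnrnpa0, and -0.10 and 0.10 for Hnrnpdl. In this pairing 3 members were lower in wild type and higher in 92Q, beside 4.23% of all genes.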

How the results depend on the processing

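With 1 score per condition, leaving out a library was not possible, and no error over libraries can be given. No paired analysis was possible because the values of the libraries were combined before deposit. Depth is unknown, and rounding limits low scores most. At 1.2-fold the member counts were 0 in both directions of the 4 comparisons under each pseudocount, minimum, scaling and 1.5-fold alternative run.

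At 1.1-fold, members higher and lower numbered 3 and 3 by genotype at 12 weeks and 5 and 4 at 29 weeks. By age they numbered 8 and 10 in wild type and 2 and 6 in 92Q. The genotype ratio was higher at 29 weeks in 9 members and lower in 7, and its share over all genes was not computed. In the 4 comparisons 93.2%, 91.8%, 79.5% and 93.2% of members lay within 1.1-fold, beside 88.8%, 77.6%, 74.1% and 74.2% of all genes. Genes exactly 1.1-fold lower were within by these shares and lower by the counts. Pathway genes at 1.1-fold numbered 7 and 4, 6 and 5, 6 and 12, and 2 and 7 in the same order, beside 0 and 2, 1 and 1, 0 and 1, and 1 and 0 at 1.2-fold, and at 1.5-fold all were 0, Cirbp included. The 2 pathway genes lower at 12 weeks became 0 with a pseudocount of 5 or any of the 3 scalings, and 1 with a minimum of 20. By age in wild type the higher count became 1 under median of ratios, upper quartile and quantile scaling, and the lower count 0 under the last 2.

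By 2 score units (1.5 in scaled tables), members higher at 12 weeks numbered 20 after upper-quartile and 16 after quantile scaling, and lower ones 3 after the former (15 and 1 at 2 units). By age in wild type they numbered 17 higher and 13 lower after upper-quartile scaling (14 and 5 at 2 units), 18 higher after quantile scaling, and 6 higher among members with a mean of 20 or more, a limit chosen after seeing the data. Upper-quartile scaling moved the 12-week median to 0.072 for Hnrnp and 0.033 for Srsf, and the wild-type age median to 0.0015 and 0.034. Quantile scaling gave 0.00 and 0.038 for that age median, and a minimum of 20 gave -0.049 for Srsf. Median-of-ratios scaling took the 29-week SF3 median from 0.017 to -0.0091. Summed over the pseudocount, minimum and scaling alternatives, 43 log2 ratios of the named members and Cirbp moved beyond their rounding range and 997 did not. The minimum alternatives leave a log2 ratio unchanged, so their entries could not move. All 43 moved under a scaling, 18 under upper quartile, 16 under quantile and 9 under median of ratios. Upper-quartile and median-of-ratios scaling divide all scores of a condition by a single factor, so the ratios of a comparison shift nearly alike. A ratio counts as moved where its shift passes its rounding range, which is narrower at higher scores. Why ratios moved under quantile scaling was not tested.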

Other observations

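Promoter windows of RefSeq (GRCm38.p6, around the annotated start, 1 window per gene) matched 63 of the 73 members. Their median GC content was 60.7% and the median ratio of observed to expected CpG 0.93, beside 62.3% and 0.80 for the 5846 genes with a row and a window, and 52.7% and 0.39 for all 27025 windows. The letters CCGGAAG, read on both strands, occurred in 25.4% of member windows, 18.4% of windows of genes with a row and 9.12% of all windows. TATAAA occurred in 12.7%, 5.94% and 14.2%, and CCAAT in 49.2%, 38.1% and 37.9%. The palindromic NRF1 motif occurred in 0 of 63 member windows, 2.21% and 0.977%. No check was made for overlap between matches of different strings, and a match describes letters alone.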
